A study of Homo sapiens with 2 samples.

Results

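The proteasome genes were compared between 1 culture of Huh-7 cells, a human hepatoma line, given medium with 100 U/mL of recombinant human interferon-alpha 2b for 6 hours, and 1 culture of the same line that received a change of medium only. Both had been incubated for 24 hours before the exchange, and each culture was read on 1 Affymetrix expression array. The set holds the genes whose symbol in the platform annotation begins PSMA, PSMB, PSMC, PSMD, PSME, PSMF or PSMG followed by a number, read by probe sets annotated to that gene alone. This gave 50 of the 19775 genes with such a probe set, on 97 probe sets. Of the 50, 42 encode proteasome subunits, regulators or assembly chaperones, and the other 8 share the symbol stem but are interacting proteins or noncoding transcripts. A further 6 of the 48 genes in the role table gave no value. PSME2 and PSMA6 lie only on probe sets annotated to a second gene as well, and PSMC5, PSMD7, PSMD13 and PSMB11 have no probe set named in the annotation used. With 1 array per condition the differences have no replicate check and cannot be tested, and ratios are given as descriptions without a p-value.

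The proteasome is the protease that degrades ubiquitin-tagged proteins and supplies most of the peptides that MHC class I molecules present. Its 20S core is a barrel of alpha rings (PSMA) around beta rings (PSMB), and the catalytic beta subunits are PSMB5, PSMB6 and PSMB7. The 19S particle caps the barrel. Its base holds the ATPases that unfold substrates (PSMC) and ubiquitin receptors such as PSMD4, and its lid, made of other PSMD proteins, removes ubiquitin chains through PSMD14. Interferons, above all interferon-gamma, are known to induce PSMB8, PSMB9 and PSMB10, which take the places of PSMB5, PSMB6 and PSMB7 in newly built immunoproteasomes. They also induce PSME1 and PSME2, which form the PA28 cap, an activator that opens the core without ATP. Type I interferon is known to act mainly at the interferon-stimulated response element (ISRE) of its target genes, and interferon-gamma mainly at the gamma-activated site (GAS).

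The start-site windows of the immune subunits and activators are shown because a response element was found in most of them, and that of PSMB5 is shown as a constitutive counterpart. Sequences are from RefSeq on GRCh38.p14, run 5′ to 3′ on the gene's strand, and cover 250 bases before to 50 bases after an annotated start. Capitals mark matches on either strand to the ISRE core (GAAANNGAAA), to the GAS (TTCNNNGAA) or to the core of the antioxidant response element (TGACNNNGC), which CNC-family factors such as NFE2L1 bind.
PSME1, chr14:24135944-24136243, plus strand: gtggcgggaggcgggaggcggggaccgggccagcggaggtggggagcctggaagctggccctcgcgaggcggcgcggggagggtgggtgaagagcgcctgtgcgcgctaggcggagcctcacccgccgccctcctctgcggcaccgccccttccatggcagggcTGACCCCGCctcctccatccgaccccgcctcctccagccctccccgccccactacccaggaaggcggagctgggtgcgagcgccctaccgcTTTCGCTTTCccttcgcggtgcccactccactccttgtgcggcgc
PSME2, chr14:24146561-24146860, minus strand: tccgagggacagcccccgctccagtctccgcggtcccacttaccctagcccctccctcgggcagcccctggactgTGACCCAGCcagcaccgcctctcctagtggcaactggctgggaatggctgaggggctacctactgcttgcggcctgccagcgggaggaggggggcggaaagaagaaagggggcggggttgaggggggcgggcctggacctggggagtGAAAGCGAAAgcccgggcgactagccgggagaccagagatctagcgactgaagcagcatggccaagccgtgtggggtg
PSMB8, chr6:32843998-32844297, minus strand: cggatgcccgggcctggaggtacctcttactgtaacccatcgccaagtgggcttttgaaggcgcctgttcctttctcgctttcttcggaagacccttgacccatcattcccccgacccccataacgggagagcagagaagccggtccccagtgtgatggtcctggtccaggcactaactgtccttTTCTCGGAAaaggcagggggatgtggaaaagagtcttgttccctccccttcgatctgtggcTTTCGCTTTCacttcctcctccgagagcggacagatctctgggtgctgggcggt
PSMB10, chr16:67936801-67937100, minus strand: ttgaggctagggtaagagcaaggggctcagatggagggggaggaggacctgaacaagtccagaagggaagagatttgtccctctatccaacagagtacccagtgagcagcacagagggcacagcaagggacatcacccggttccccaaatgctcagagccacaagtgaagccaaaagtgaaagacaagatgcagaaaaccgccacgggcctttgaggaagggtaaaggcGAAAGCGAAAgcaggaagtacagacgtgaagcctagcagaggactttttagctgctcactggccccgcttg
PSMB9, chr6:32853942-32854241, plus strand: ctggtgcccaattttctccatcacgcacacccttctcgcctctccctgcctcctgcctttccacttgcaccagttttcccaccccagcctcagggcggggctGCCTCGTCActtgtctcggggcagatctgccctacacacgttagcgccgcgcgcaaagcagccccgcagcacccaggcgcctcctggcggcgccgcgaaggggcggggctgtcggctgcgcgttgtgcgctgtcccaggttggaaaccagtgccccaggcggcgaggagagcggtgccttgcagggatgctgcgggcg
PSMB5, chr14:23034851-23035150, minus strand: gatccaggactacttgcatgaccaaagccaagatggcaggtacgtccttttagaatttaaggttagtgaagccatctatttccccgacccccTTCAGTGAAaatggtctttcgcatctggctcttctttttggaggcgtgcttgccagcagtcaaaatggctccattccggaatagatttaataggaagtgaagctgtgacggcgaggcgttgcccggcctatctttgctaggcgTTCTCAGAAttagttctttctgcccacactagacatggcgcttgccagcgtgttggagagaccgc

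An identical ISRE core, GAAAGCGAAA on one strand or the other, stood in the windows of PSME1, PSME2, PSMB8 and PSMB10. It began 28 bases before the start in PSME2, 21 bases before it in PSMB10, 4 bases before it in PSMB8 and 5 bases after it in PSME1. The PSMB9 window held none, nor did the other annotated PSMB8 window. The ISRE core was thus found in 4 of the 6 windows of this group, and in 3.57% of the 35116 windows of the RefSeq table. By gene it was found in 4 of the 5 genes of this group and in 1195 of 27305 genes. Among the constitutive core genes with a window it was found in 2 of 10, PSMB4 and PSMA4, and with other letters in the centre. It was found in 0 of 8 genes of the 19S base and in 0 of 8 of the lid. Outside those groups it was found, with the letters GAAAGCGAAA, in the core chaperone gene PSMG4 and in the antisense gene PSMB8-AS1, whose window overlaps that of PSMB8. The GAS was found in 7.66% of all windows and in 1 of the 5 immune and PA28 genes, PSMB8 (1 of 6 windows). It was found in 15.7% of the 51 windows of all subunit, regulator and chaperone genes. These held 2 of 10 core, 2 of 8 base and 1 of 8 lid genes. Both GAS matches of PSMB5 lay in the window printed above. The antioxidant response core was found in 13.3% of all windows, and in PSME1, PSME2 and PSMB9 of the immune and PA28 group (3 of 6 windows). It was not particular to that group: it was found in 29.4% of the 51 windows of all subunit, regulator and chaperone genes. Among these were 2 of 10 core, 3 of 8 base and 2 of 8 lid genes. In the printed windows none of these matches overlapped another. A match is a run of letters and not a measured binding site.

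Transcripts known to follow interferon were far brighter on the interferon array. ISG15, a ubiquitin-like protein, had an intensity of 8332 on the interferon array and 351.2 on the untreated array. On the probe set used, each of the 8 genes listed as a check of the response exceeded 2-fold. Values below the median of all probe set values of both arrays, an intensity of 48.5, were raised to that floor, and genes above it on at least 1 array were counted. Each gene was read by its brightest probe set, taken over both arrays on the log2 scale. For the 12742 genes that exceeded the floor on each array, the log2 ratio of interferon over untreated had a median of 0.04, and the central 95% lay between -0.29 and 0.30. Of the 8 check genes IFIT1, MX1 and OAS1 were below the floor untreated, so their ratios are bounds. EIF2AK2 had a log2 ratio of 3.62 on the probe set used and 0.38 on its lowest counted one. All 8 hepatocyte markers listed were above the floor, among them ALB at 14588 on the interferon array and 12212 on the untreated array. The leukocyte markers PTPRC (17.0 with interferon, 19.2 untreated) and CD3E (22.1 with interferon, 21.8 untreated) did not reach the floor on either array. Of 7 leukocyte markers 4 were above it, with a median log2 ratio of -0.18. Of these LYZ was higher with interferon (2271 with interferon, 2064 untreated, 1.10-fold), and CD14, CD79A and CD74 had log2 ratios of -0.25, -0.24 and -0.12. Summed over the 7 the intensity was 2570 with interferon and 2410 untreated, and LYZ made up most of both sums. Of 8 endothelial and stromal markers 5 were above it, and 0 were at least 1.5-fold changed, beside 0.754% higher and 0.0829% lower of all counted genes.

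One proteasome gene stood out. PSME1, the alpha subunit of the PA28 cap, had an intensity of 1235 on the interferon array and 820.1 on the untreated array, a ratio of 1.51-fold (log2 0.59). It was the only 1 of 43 counted members that was at least 1.5-fold higher, a threshold that 0.754% of all 13269 counted genes passed. A 2-fold higher value was reached by no member and by 0.43% of the 13269 genes, and a 1.5-fold lower one by no member and by 0.0829% of them. PSME1 lay just past the threshold, and with quantile or lowess scaling between the arrays it was under it, at log2 ratios of 0.49 and 0.50. After centring on the hybridisation controls, foreign transcripts added to each sample, it was further under it, at 0.16, beside -0.39 for the median of all genes. Its ratio was above those of 99.2% of the genes in its own brightness group, when all genes were split into 10 equal groups. The value of PSME1 rests on 1 probe set. PSME2, the beta subunit of the same cap, gave no value of its own because its probe set is annotated to a microRNA gene too.

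Of the 3 catalytic immune subunits, PSMB8 and PSMB9 were too dim to give a ratio above the floor, and PSMB10 was under 1.5-fold. PSMB8, the replacement for PSMB5, had 37.2 with interferon and 30.2 untreated. PSMB9, the replacement for PSMB6, had 34.7 with interferon and 22.2 untreated. Neither reached the floor on either array, so no ratio is given for them, and each has 1 probe set. PSMB10, the replacement for PSMB7, was above the floor with 178.5 on the interferon array and 168.2 on the untreated array, a log2 ratio of 0.09 that lay inside the central 95% of all genes. The antisense transcript PSMB8-AS1 was also below the floor, at 33.8 with interferon and 29.4 untreated. With the floor at the 40th percentile, PSMB8 and PSMB9 were counted and had log2 ratios of at least 0.22 and at least 0.12, which are bounds because both untreated values lay under that floor too. Without a floor and with a pseudocount of 1, PSMB9 had a log2 ratio of 0.63 and PSMB8 one of 0.29, at intensities where the ratio of a single pair of arrays is least certain.

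**Figure D1:**
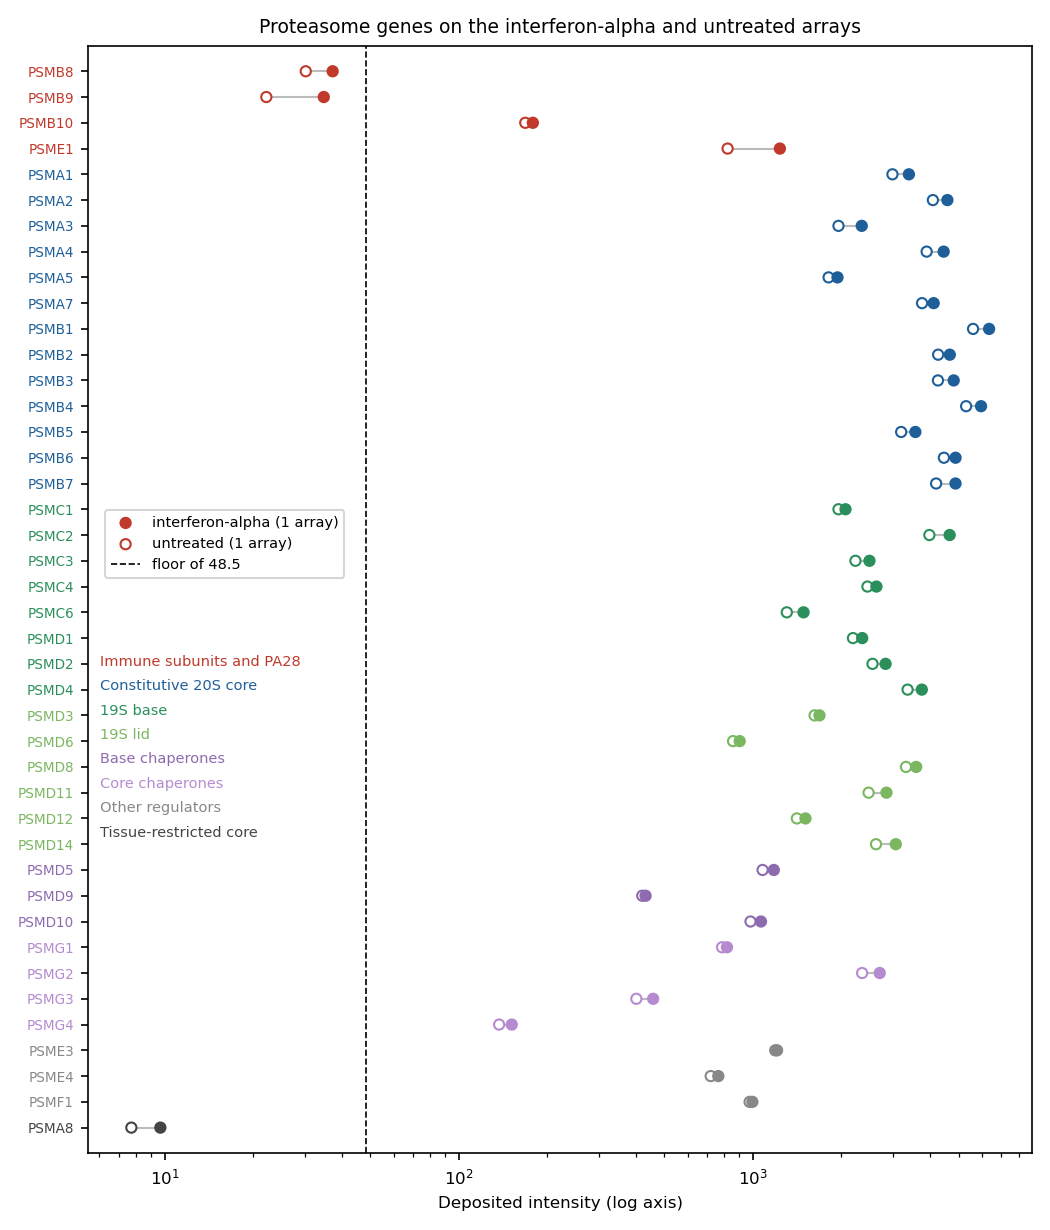
Deposited intensity (log axis) of the 42 proteasome genes with a value, on the interferon-alpha array (filled) and the untreated array (open), 1 array each, coloured by role, with the floor of 48.5 as a dashed line. PSMB8, PSMB9 and PSMA8 lie left of the floor on both arrays, and PSME1 has the widest gap among the genes right of it.

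PSMB8 and PSMB9 lie on chromosome 6 with the peptide transporter gene TAP1 between them and TAP2 on the other side of PSMB8, by gene order in RefSeq. These neighbours were chosen after their values were seen. TAP1 had 200.6 with interferon and 66.3 untreated, or 3.02-fold, and TAP2 had 169.7 with interferon and 83.0 untreated, or 2.04-fold. As deposited, the transporter genes were therefore at least 2-fold higher beside immune subunit genes that stayed below the floor. TAP2 was just past 2-fold and rests on 1 of its 4 probe sets, the only one counted. PSME1 and PSME2 lie together on chromosome 14, separated by EMC9 (331.8 with interferon and 255.8 untreated, 1.30-fold). On the other side of PSME2 lies RNF31, which had 119.3 with interferon and 133.8 untreated (log2 -0.17). Next to RNF31 lies IRF9, the DNA-binding subunit of the interferon-alpha transcription complex, with 2143 with interferon and 106.7 untreated (20.1-fold). On the far side of PSME1, FITM1 was below the floor and DCAF11 had a log2 ratio of 0.05.

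The constitutive 20S core was bright on both arrays and nearly uniform in its ratios. All 13 measured subunits were above the floor, with intensities from 1939 to 6353 on the interferon array and from 1808 to 5603 on the untreated array. Their log2 ratios ran from 0.10 (PSMA5) to 0.26 (PSMA3), with a median of 0.17, and 0 of 13 were at least 1.5-fold changed in either direction. Of all counted genes 0.754% were at least 1.5-fold higher and 0.0829% lower, so a count of 0 among so few genes is near that share. All 13 ratios were above 0 as deposited, as were 58.5% of all counted genes. In the brightest of the 10 brightness groups, which holds these 13, 96.2% of the genes were above 0. The sign depended on the scaling: 5 of 13 were above 0 after quantile scaling, 8 of 13 after lowess scaling and 0 of 13 after centring on the hybridisation controls. The median of all genes above the floor was -0.02, -0.01 and -0.39 in that order. The core median was 0.01, 0.01 and 0.13 above it. These subunits all belong to the brightest of those 10 groups, whose median log2 ratio was 0.14 with a central 95% of -0.02 to 0.29.

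The subunits that the immune forms replace had the following values. PSMB5, which carries the chymotrypsin-like site, had 3567 with interferon and 3191 untreated, a log2 ratio of 0.16. PSMB6, with the caspase-like site, had 4885 with interferon and 4459 untreated, a log2 ratio of 0.13. PSMB7, with the trypsin-like site, had 4884 with interferon and 4196 untreated, a log2 ratio of 0.22. None of these catalytic subunits had a lower intensity on the interferon array as deposited.

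The alpha ring, which gates entry to the chamber, had log2 ratios of 0.19 for PSMA1 (3391 with interferon, 2981 untreated), 0.16 for PSMA2 (4583 with interferon, 4091 untreated) and 0.26 for PSMA3 (2344 with interferon, 1953 untreated). PSMA4 (4451 with interferon, 3896 untreated) had a log2 ratio of 0.19, PSMA5 (1939 with interferon, 1808 untreated) had 0.10 and PSMA7 (4116 with interferon, 3758 untreated) had 0.13. PSMA3 had the second highest ratio of all counted members after PSME1, at 1.20-fold, and was still inside the central 95% of all genes. The noncatalytic beta subunits lay in the same narrow range. PSMB1 had 6353 with interferon and 5603 untreated (log2 0.18), and PSMB2 had 4670 with interferon and 4263 untreated (log2 0.13). PSMB3 had 4815 with interferon and 4256 untreated (log2 0.18), and PSMB4 had 5964 with interferon and 5307 untreated (log2 0.17). The testis-restricted alpha subunit gene PSMA8 was below the floor, at 9.66 with interferon and 7.70 untreated.

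**Figure D2:**
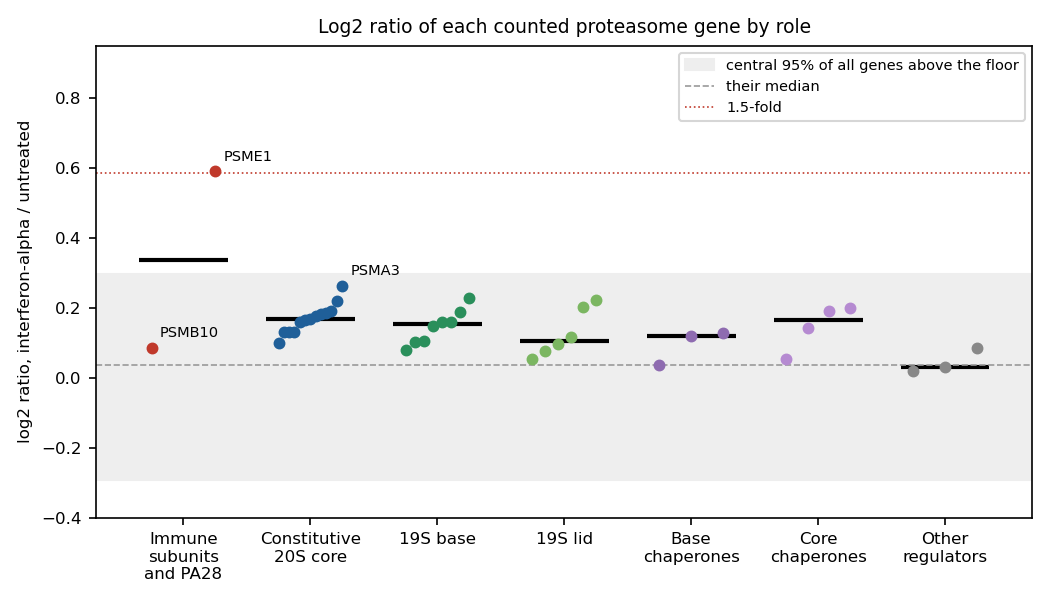
Log2 ratio of the interferon-alpha array over the untreated array for the 39 counted proteasome genes by role, 1 point a gene, with black bars at the group medians. PSME1, at 0.59, is the only point above the grey band that holds the central 95% of all genes, and the constitutive core has its median at 0.17.

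In the 19S base all 8 measured subunits were above the floor, with a median log2 ratio of 0.15 and 0 of 8 at least 1.5-fold changed. That count is near the share over all counted genes, 0.754% higher and 0.0829% lower. Among the ATPases, PSMC2 was the highest with 4665 on the interferon array and 3980 on the untreated array, a log2 ratio of 0.23. This rests on 1 of its 3 probe sets: with the median over them, or without _x_at and _s_at probe sets, its log2 ratio was -0.07. PSMC1 was the lowest with 2064 with interferon and 1953 untreated, a log2 ratio of 0.08. Between them lay PSMC6 (1486 with interferon, 1304 untreated, log2 0.19), PSMC3 (2490 with interferon, 2231 untreated, log2 0.16) and PSMC4 (2630 with interferon, 2451 untreated, log2 0.10). The scaffold subunits PSMD1 (2353 with interferon, 2188 untreated) and PSMD2 (2825 with interferon, 2550 untreated) had log2 ratios of 0.10 and 0.15. The ubiquitin receptor PSMD4 had 3751 with interferon and 3356 untreated, a log2 ratio of 0.16.

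The lid had a median log2 ratio of 0.11 over 6 measured subunits, and 0 of 6 were at least 1.5-fold changed (all counted genes: 0.754% higher, 0.0829% lower). PSMD14, the deubiquitinase that removes chains from substrates, had 3060 with interferon and 2621 untreated, a log2 ratio of 0.22 and the highest of the lid. PSMD11 followed with 2844 with interferon and 2473 untreated (log2 0.20). The other scaffold subunits of the lid were lower, with PSMD8 at 0.12 (3590 with interferon, 3314 untreated), PSMD12 at 0.10 (1508 with interferon, 1410 untreated), PSMD6 at 0.08 (901.4 with interferon, 855.8 untreated) and PSMD3 at 0.05 (1683 with interferon, 1620 untreated). All 14 base and lid ratios were above 0 as deposited. So were 96.2% of all genes in the brightest group, which holds all of the 14 but PSMD6, and 84.4% in the next. After centring on the hybridisation controls 0 of 14 were above 0, and 5 and 7 of 14 were after quantile and lowess scaling. Their median lay 0.09 above that of all genes after that centring, and 0.01 above it after quantile and lowess scaling. With the median over probe sets 13 of 14 were above 0, and without _x_at and _s_at probe sets 8 of the 10 genes left.

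Set against these groups, PSME1 was 0.42 above the median log2 ratio of the constitutive core, a relative difference of 1.34-fold, and 0.46 above the median of base and lid together. This distance does not change with a constant shift between the arrays. It was 0.50 from the core after quantile scaling and 0.49 after lowess scaling. PSMB10 was 0.08 below the core median as deposited, and 0.06 above it after quantile and 0.07 above it after lowess scaling. The median over the immune and activator group, 0.34, is that of PSME1 and PSMB10 alone, because PSMB8 and PSMB9 were not counted and PSME2 gave no value. It was 0.17 above the core median and 0.21 above that of base and lid.

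**Figure D3:**
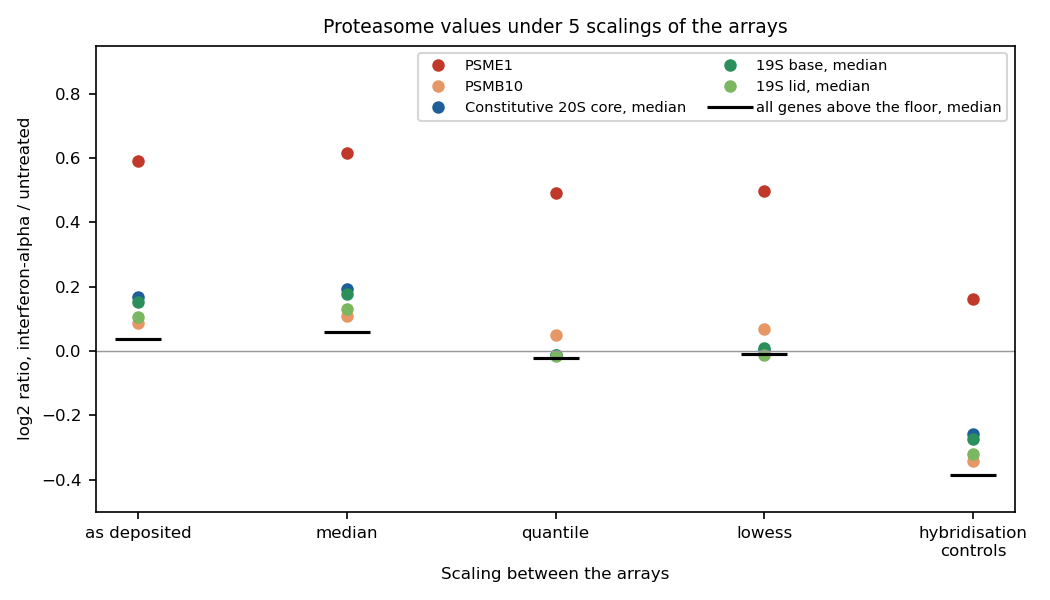
Log2 ratio of PSME1 and PSMB10 and median log2 ratio of the constitutive core, the 19S base and the 19S lid (y axis) under 5 scalings between the arrays (x axis), with black bars at the median of all genes above the floor. PSME1 stays above 0 and above the other points in each scaling, at 0.16 after centring on the hybridisation controls, whereas the core, base and lid medians lie near 0 after quantile and lowess scaling.

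The remaining regulators had a median log2 ratio of 0.03, below those of the other subunit, activator and chaperone groups. PSME3, the nuclear PA28 gamma activator, had 1208 with interferon and 1191 untreated, a log2 ratio of 0.02. PSME4, the PA200 activator, had 762.4 with interferon and 718.4 untreated (log2 0.09). PSMF1, the inhibitor PI31, had 995.6 with interferon and 974.2 untreated (log2 0.03). Among the PA28 genes with a value of their own, PSME1 was thus 1.51-fold higher and PSME3 1.01-fold higher.

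The assembly chaperones were spread over a similar range to the subunits. Chaperones of the core had log2 ratios of 0.20 for PSMG2 (2698 with interferon, 2351 untreated), 0.19 for PSMG3 (457.7 with interferon, 401.4 untreated), 0.14 for PSMG4 (151.4 with interferon, 137.1 untreated) and 0.05 for PSMG1 (815.9 with interferon, 785.4 untreated). PSMG1 and PSMG2 form one dimer that guides the alpha ring, and their ratios were 0.05 and 0.20. Chaperones of the 19S base had 0.13 for PSMD5 (1177 with interferon, 1078 untreated), 0.12 for PSMD10 (1065 with interferon, 981.1 untreated) and 0.04 for PSMD9 (431.5 with interferon, 420.4 untreated). The median over the 10 chaperones and other regulators was 0.10, and 0 of 10 were at least 1.5-fold changed (all counted genes: 0.754% higher, 0.0829% lower).

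**Figure D4:**
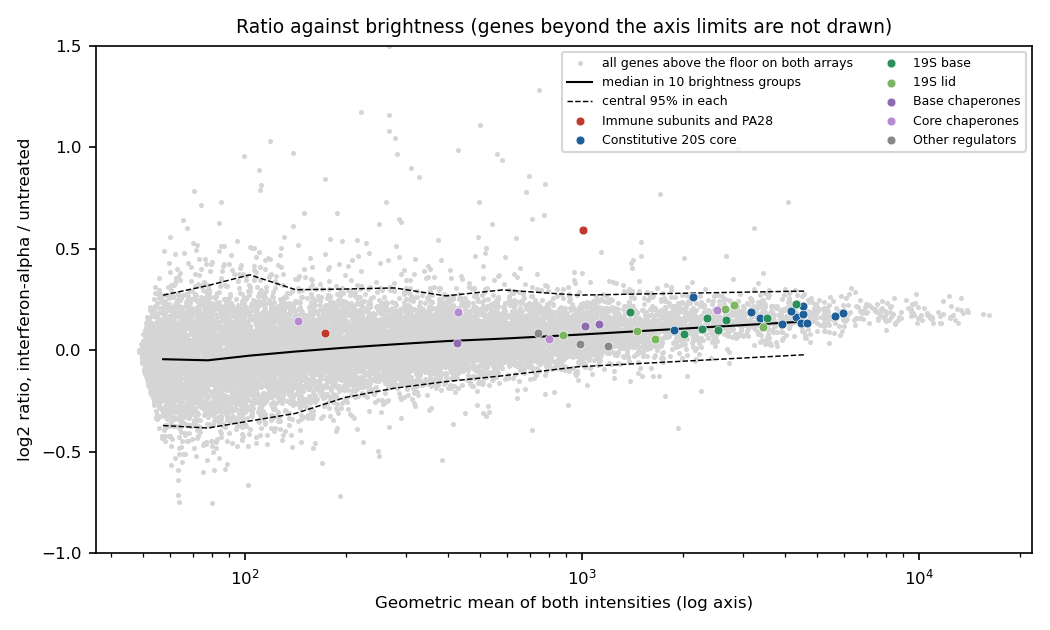
Log2 ratio (y axis) against the geometric mean of both intensities (x axis, log scale) for every gene that exceeded the floor on each array (grey) and proteasome genes by role (colours), with the median and central 95% of 10 brightness groups as lines. The median of all genes climbs to 0.14 in the brightest group, where the 13 core subunits sit around it, and PSME1 lies above the upper line of its own group.

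The 8 genes that share the symbol stem only were mostly dim. PSMC3IP, a meiotic recombination factor, had 182.4 with interferon and 198.5 untreated (log2 -0.12), and PSME3IP1, a partner of PSME3, had 537.9 with interferon and 527.6 untreated (log2 0.03). PSMG3-AS1 had 88.4 with interferon and 98.5 untreated (log2 -0.16), and PSMA3-AS1 had 217.8 with interferon and 206.9 untreated (log2 0.07). PSMB8-AS1, PSMD6-AS2, PSMD7-DT and PSMD14-DT did not reach the floor on either array, and PSMD6-AS2 had the same value, 29.0, on both.

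Where a gene had several probe sets, they mostly gave like ratios. In the 21 members with several counted probe sets, log2 ratios of one gene spanned 0.09 in the median, beside 0.14 for all 5912 genes with more than 1 probe set over the floor on each array. PSMB2 was the only gene whose probe sets differed by more than 0.5: the one used and a further one had log2 ratios of 0.13 and 0.17, whereas another had 443.2 with interferon and 654.1 untreated, a log2 ratio of -0.56. PSMC2 had 0.23 on its brightest probe set and -0.07 and -0.09 on the other 2. PSMD4 had 0.15 to 0.20 on 3 bright probe sets and a bound of -0.16 on a probe set near the floor, at 41.5 with interferon and 54.1 untreated. PSMA3-AS1 had 0.07 on the probe set used and 0.37 on a dimmer one (63.8 with interferon, 49.3 untreated). PSMC3IP had -0.12 on the probe set used and 0.06 on its other one. PSMG4 had 0.14 on the probe set used, and 0 and a bound of 0.02 on dimmer counted ones. The 4 counted probe sets of PSMF1 ran from -0.06 to 0.16, with 0.03 on the one used. PSME3 had 4 counted probe sets, from -0.01 to 0.07, of which 1 had the identical intensity of 227.8 on both arrays.

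**Figure D5:**
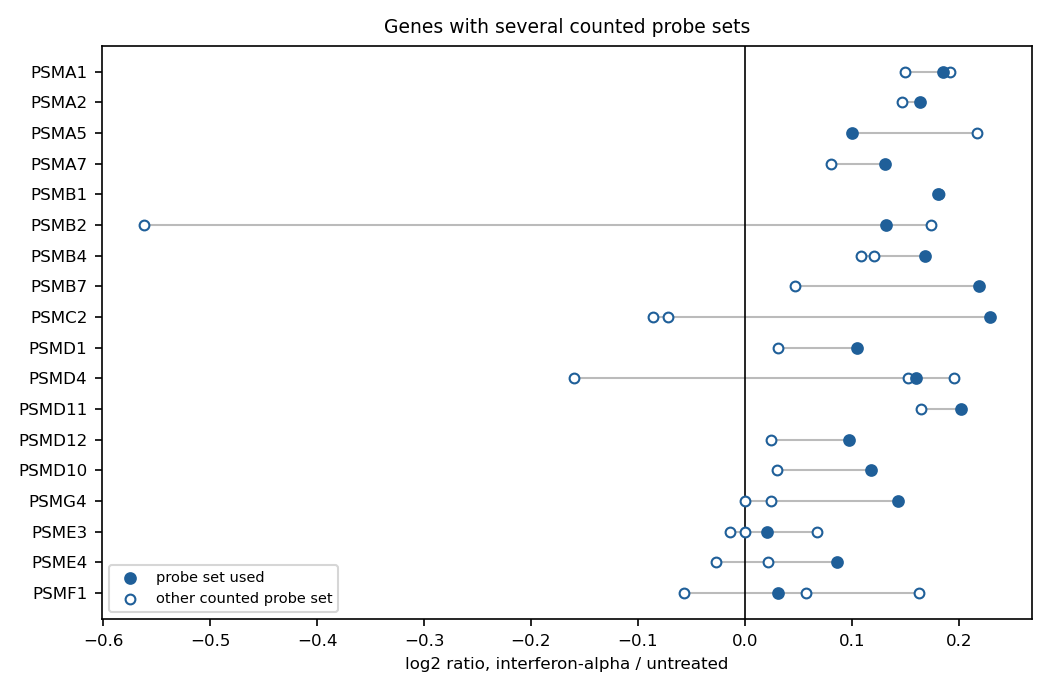
Log2 ratio of each counted probe set (x axis) for the 18 proteasome genes with several of them, the probe set used as a filled point and the others as open points. Most genes span less than 0.2, and PSMB2 has a probe set at -0.56 against 0.13 for the one used.

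Genes that work with the proteasome but have other symbols had ratios in the range of the constitutive members or below it. Of 20 such genes 18 had a value, all above the floor, with a median log2 ratio of 0.12 and 0 at least 1.5-fold changed. For these lists too the share over all counted genes was 0.754% higher and 0.0829% lower. The ubiquitin receptor ADRM1 had 2480 with interferon and 2244 untreated (log2 0.14), and the small lid subunit SEM1 had 2775 with interferon and 2347 untreated (log2 0.24). The maturation factor POMP, which builds both kinds of core, had 3928 with interferon and 3377 untreated (log2 0.22). For NFE2L1, the factor that drives proteasome genes when proteolysis is impaired, 6 of 9 listed genes of its axis had a value, with a median of 0.06 and 0 at least 1.5-fold changed. NFE2L1 itself had 912.1 with interferon and 968.2 untreated (log2 -0.09). Of the ubiquitin genes and E1 enzymes 3 of 7 had a value, and the median was 0.19, with UBB at 12165 with interferon and 10664 untreated. In the list of class I peptide supply, 6 of 10 counted genes passed 1.5-fold upward, and the median was 0.67. That median was 0.25 after centring on the hybridisation controls, and 0.18 without _x_at and _s_at probe sets, which left 5 of the genes. Besides TAP1 and TAP2 the 6 held LAP3 (2.30-fold), a peptidase that trims peptides in the cytosol, and IRF1 (1.85-fold), a transcription factor for the immune subunit genes. The others were B2M (1.66-fold), the class I light chain, and TAPBP (1.54-fold), the loading factor tapasin. IRF1 and TAPBP were under 1.5-fold on their other counted probe set, at log2 ratios of 0.53 and 0.26. The chaperone genes CALR, CANX and PDIA3 and the trimming peptidase gene ERAP1 were under 1.5-fold, and ERAP2 and NLRC5 reached the floor on neither array. On the probe sets used, the ratio of PSME1 thus lay just under the lowest of those 6, that of TAPBP.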

How the data were processed

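The authors deposited linear-scale intensities of 54675 probe sets for each array. Per the submitters' processing notes GCOS, the scanner software, was used. How background, probe set summary and scaling were handled is not stated there. Per the labels' protocols, 6 µg of total RNA went into the labelling of each sample.

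The platform annotation names a single gene for 41091 of them, and only these entered gene values. Symbols of genes outside the set were updated through the gene ID. Intensities below the 50th percentile of both arrays (48.5, 62 control probe sets left out) were raised to it, and the log2 ratio of interferon over untreated was taken on each gene's brightest probe set (mean log2 over both arrays). As no test is possible, changes of at least 1.5-fold and 2-fold were counted. The number of arrays limits the precision, and no detection calls were used. The procedure was tested on simulated data. Every member was named, as were, from the other lists, genes at least 1.5-fold changed and a few others in list order. The members and lists were chosen with earlier results of these data known. Alternatives were 4 scalings, 3 floor settings and 3 choices of probe set, and, chosen after seeing the data, use of shared probe sets. No protein sequences were used here. Python with pandas 2.3.3 and statsmodels 0.14.6 was used.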

Additional observations from a re-analysis of the deposited data

Results flagged for a closer look

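A probe set left out of the gene values, because the annotation gives it to PSME2 and to the microRNA gene MIR7703 together, had an intensity of 2118 on the interferon array and 1388 on the untreated array. Its ratio was 1.53-fold (log2 0.61), next to 1.51-fold for PSME1, whose product pairs with that of PSME2. Which of the 2 annotated genes it reads cannot be told from the files. It is singled out because it lies outside the comparison and was higher on the interferon array than on the untreated one. The other shared probe sets of the family were lower: the brighter of those annotated to PSMA6 and PRORP had 4576 with interferon and 4158 untreated, or log2 0.14.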

How the results depend on the processing

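No paired analysis was possible because each condition has 1 array. For scale, a log2 value was taken as moved where it differed by more than 0.13, the robust SD of the log2 ratio over genes, which is no replicate error. Counts of genes at least 1.5-fold higher were taken as moved where they differed by a factor of more than 1.5. Centring on the hybridisation controls, which were brighter with interferon in 18 of 18 probe sets, subtracted 0.43 from every ratio above the floor. The median of all genes above the floor was then -0.39. At least 1.5-fold lower were then 1201 of all counted genes, beside 11 as deposited. The medians then were -0.0894 for the immune and PA28 group, -0.26 for the core, -0.27 for the base, -0.32 for the lid, -0.33 for chaperones and other regulators, -0.31 for proteasome genes outside the symbol rule, -0.37 for the NFE2L1 axis, -0.24 for ubiquitin genes, 0.25 for class I supply and 3.49 for the interferon check, with 0 members and 59 genes at least 1.5-fold higher and PSME1 at 0.16. After quantile scaling the core was at -0.0118, the base at -0.0122, proteasome genes outside the rule at -0.0123 and ubiquitin genes at 0.0125. After lowess scaling the core was at 0.00337, the base at 0.00798 and ubiquitin genes at -0.000947, and under both 0 members were at least 1.5-fold higher. With the floor at the 40th percentile, which counts PSMB8 and PSMB9, the immune and PA28 median was at least 0.17, its distance to the core at least 0.00023 and to base and lid at least 0.0372, which are bounds because both untreated values were raised to that floor. Without a floor the same values were 0.44, 0.27 and 0.31, 2 members were at least 1.5-fold higher, PSMB9 being the second, and class I supply was at 0.54. It was 0.18 without _x_at and _s_at probe sets. The interferon check, 3.85 as reported, came to 3.55 with a 60th-percentile floor, 3.63 with the median over probe sets, 3.62 without _x_at and _s_at probe sets and 3.33 with the probe set brightest untreated. With the shared probe sets taken as PSME2 and PSMA6, chosen after seeing the data, the immune and PA28 median was 0.59, its distance to the core 0.42 and to base and lid 0.46, and 2 members were at least 1.5-fold higher. Where no cause is given here, the cause was not tested. Of 154 recomputed summary values 119 stayed within these limits. A reversal was counted only for a log2 value of at least 1.5-fold as reported, and 0 were found. Among the medians only class I supply and the interferon check were that large, so this count says nothing about the others. The other medians were above 0 as reported and below 0 after centring on the hybridisation controls, as was the median of all genes (0.04 and -0.39). Of 462 member ratios 368 stayed within the limit. PSME1, the only member that large as reported, was above 0 in every alternative run. Genes below the floor, among them PSMB8 and PSMB9, are limited by signal over background.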
